A study of Rattus norvegicus with 4 samples.

Results

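The enzymes described here belong to the families that cells use to modify drugs, steroids, retinoids and reactive aldehydes: cytochromes P450 (Cyp), glutathione transferases (Gst and the membrane-bound Mgst), UDP-glucuronosyltransferases (Ugt), sulfotransferases (Sult), aldehyde dehydrogenases (Aldh), aldo-keto reductases (Akr), carboxylesterases (Ces) and quinone oxidoreductases (Nqo). Members were taken by gene symbol, with Cyp11a1, Cyp51 and Akr1c14 left out, and each gene was represented by the probe set with its highest mean signal. A gene was kept when at least 2 of the 4 arrays had a signal above a floor of 20.8, the 20th percentile. Signals below the floor were set to it, so their order was not used in the log2 differences. Of 120 genes of these families on the array 81 were kept (67.5%). Over all genes, 9011 of 10411 met the same filter (86.55%).

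The study measured total RNA of visceral fat of male Wistar rats, 130 days old, on Affymetrix-type arrays with 1 signal per probe set. There were 2 obese samples and 2 control samples, and the labels give no cause of the obesity and no diet or genotype. The labels do not tell if each sample is a single animal, so the p-values below reflect the scatter among 4 samples, and that scatter may be technical. Array-wide median signals were 82.2 and 75.0 on obese replicates 1 and 2, and 83.1 and 82.8 on control replicates 1 and 2. In bulk tissue, fewer cells of a type and less RNA per cell cannot be told apart.

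Drug and steroid metabolism runs in steps. In the first, P450s, carboxylesterases, aldo-keto reductases, aldehyde dehydrogenases and quinone oxidoreductases add or expose a polar group, and in the second, transferases couple glutathione, glucuronic acid or sulfate to it. Most of these enzymes are best known from the liver, but fat stores lipophilic compounds and steroids and carries part of the same equipment. Several are induced through the aryl hydrocarbon receptor, which binds a DNA element with the core GCGTG, or through the antioxidant-responsive factor NRF2, whose element has the core TGACNNNGC.

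The tissue label was checked against adipocyte markers: all 6 that could be named on the array (Lep, Plin1, Lpl, Fabp4, Pparg and Lipe) were above the floor on every array, with summed signals of 8752.1 and 10977 on the obese arrays and 8888.1 and 8448.3 on the control arrays. Of 10 liver markers 8 passed the filter, Apoa1 and Tat were under the floor throughout, and the summed signals were 493 and 480 on the obese arrays and 340.6 and 492.3 on the control arrays. Epithelial and mesothelial markers differed more: their sum was 1600.7 on obese replicate 1 and 326.1 on obese replicate 2, against 659.1 and 810.6 on the controls. Epcam had a signal of 198.2 on obese replicate 1 and 13.8 on obese replicate 2, against 25.4 and 20 on the controls, and Cdh1 was at 74.0 on obese replicate 1 and at most 2.4 on the other arrays. Obese replicate 1 therefore stands apart in these markers, and members highest on it by at least 1.5 times are given with and without it.

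The families differed in how many of their genes passed the filter. Over all genes on the array 86.55% passed, and over the 120 genes of these families 67.5% did. Of the P450 genes on the array 34 of 51 passed the filter, of the glutathione transferases 17 of 19, of the aldehyde dehydrogenases 11 of 13 and of the aldo-keto reductases 9 of 11. Both Nqo genes passed, 2 of 4 carboxylesterases, 5 of 13 sulfotransferases and 1 of 7 glucuronosyltransferases. Among the 39 genes left out, 31 were at or under the floor on all 4 arrays, and 8 had 1 array above it. The genes under the floor on every array include Cyp17a1 and aromatase, Cyp19a1, both enzymes of sex steroid synthesis, the drug-metabolizing Cyp3a2 and the sulfotransferase Sult2a1. Just inside the filter was Akr7a3, with 20.9 and 16.7 in obese and 21.9 and 18.7 in control tissue, and just outside it Ugt8, with 15.9 and 25.9 in obese and 19.4 and 20.1 in control tissue. Of the 81 members 66 were above the floor on all arrays, 10 on 3 and 5 on 2.

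Across the members, signals were compared as obese minus control on the log2 scale with limma's moderated test over all 12929 probe sets. No member passed at an adjusted p of 0.05, as was so for 0 of all probe sets tested (0%), and the members' adjusted p ranged between 0.402 and 0.987. An unadjusted p under 0.05 was found for 12 of 81 members in limma, against 8.59% of all genes, and for 6 (7.41%) in a plain test without moderation, against 7.14% of all genes. Words such as higher and lower below therefore describe signals on these 4 arrays. For 23 members the lower obese signal exceeded the higher control signal (separated upwards), for 14 the reverse was true (separated downwards), and for 44 the groups overlapped. Of the 14, 2 had both obese arrays at or under the floor and passed the filter only through the controls, so they had to be separated. Over all 9011 genes, groups were separated upwards for 16.4% and downwards for 24.0%, where the members had 28.4% and 17.3%. With 1 array left out, which makes separation easier to meet, the upward number was 39 or 38 when obese replicate 1 or 2 was omitted and 37 when control replicate 1 was, beside 29.7%, 33.1% and 28.8% of all genes. The downward number was 25 with obese replicate 1 omitted and 22 with control replicate 2 omitted, beside 45.5% and 37.9% of all genes. For 66 of the 81 members, 22 of the separated ones among them, the omission of some array turned the sign of the difference or made it smaller by over 1.5 times. Scaling moved the shares for all genes to 19.7% upwards and 20.4% downwards after quantile normalization. They were 20.4% and 19.9% after cyclic loess, and 21.4% and 18.5% after median centring. In the same order of scalings, 24, 27 and 26 members were separated upwards and 13, 13 and 13 downwards.

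The median log2 difference was 0.11 over the members and -0.04 over all genes. By family it was 0.23 for the 17 glutathione transferases, 0.25 for the 11 aldehyde dehydrogenases and 0.18 for the 9 aldo-keto reductases. It was -0.0052 for the 34 P450s, and it was 0.071, 0.072 and 0.053 after quantile normalization, cyclic loess and median centring, where the median of all genes was -6.3e-05, 0.0032 and 0.018. It was -0.07 for the 5 sulfotransferases. The glutathione transferases had 8 members separated upwards and 3 downwards, the aldehyde dehydrogenases 4 and 1, the aldo-keto reductases 2 and 0. The P450s had 5 upwards and 10 downwards (8 and 10 with quantile normalization or cyclic loess). These 10 include Cyp2g1 and Cyp4f4, which passed the filter only through the control arrays and so had to be separated downwards. The opposite case, with both control arrays at or under the floor, held for 0 members. At a higher floor, set at the 40th percentile (54.7), 4 P450s were separated downwards. For comparison, 16.4% of all genes were separated upwards and 24.0% downwards. Differences between families were not tested.

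**Figure D1:**
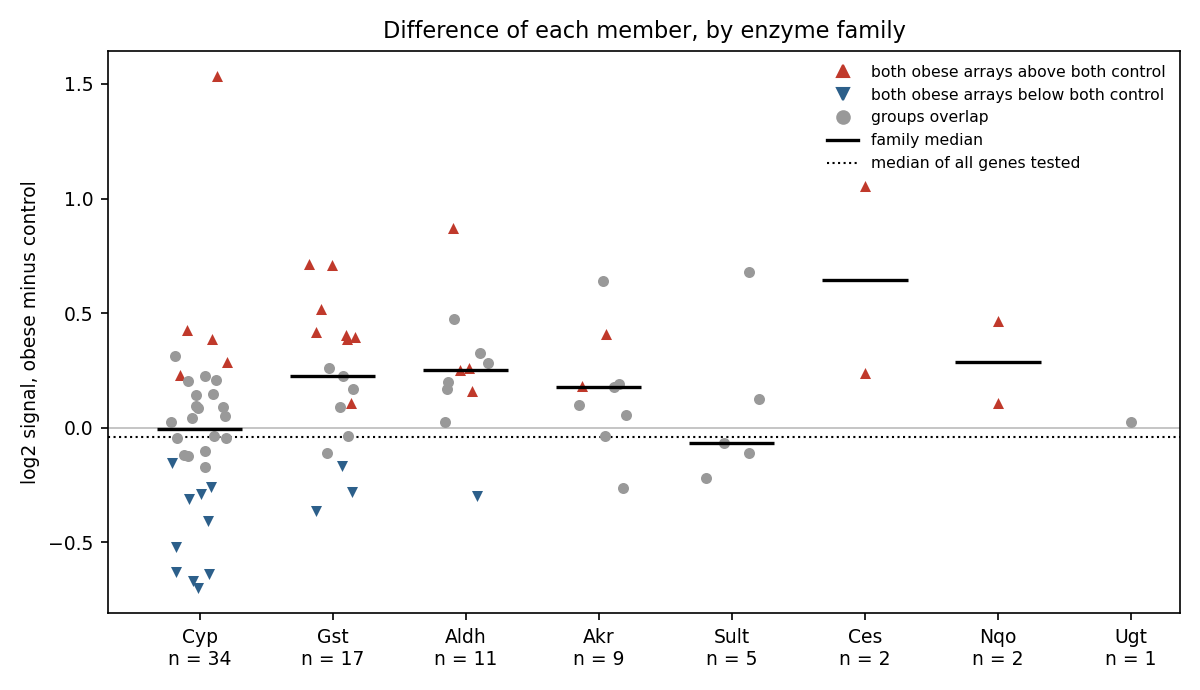
Each point is 1 of the 81 members, grouped by enzyme family on the horizontal axis, with its log2 signal difference, obese minus control, on the vertical axis; triangles mark members whose groups did not overlap, black bars family medians and the dotted line the median of all genes tested, -0.04. The Gst, Aldh and Akr medians lie between 0.18 and 0.25, and the Cyp points spread from -0.70 to 1.53 around a median near 0.

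**Figure D2:**
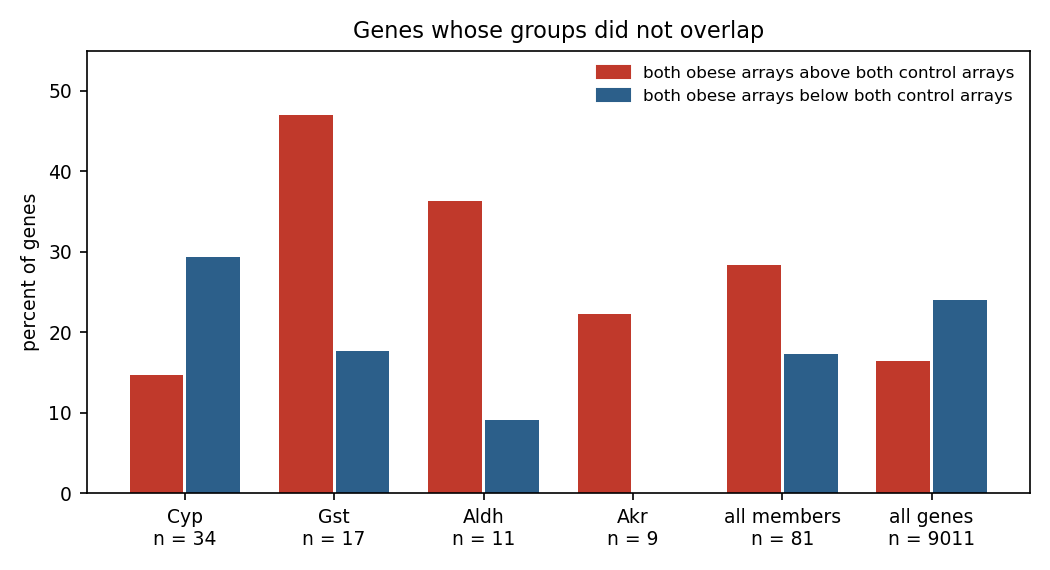
Bars give the percent of genes with both obese arrays above (left bar) or below (right bar) both control arrays, for the 4 families with most members, all 81 members and all 9011 genes. Gst has 47.1% above and 17.6% below, Cyp 14.7% and 29.4%, and all genes 16.4% and 24.0%. The Cyp share below includes Cyp2g1 and Cyp4f4, which passed the filter only through the control arrays and so had to differ.

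The bright members differed from all genes of like brightness more than the dim ones did. Among the 42 with a mean signal of 100 or more, 17 were separated upwards (40.5%) and 4 downwards (9.52%), beside 19.1% and 23.7% of the 5432 genes as bright, and their median difference was 0.19, beside -0.02. Among the 39 dimmer members, 6 were separated upwards (15.4%) and 10 downwards (25.6%), which is near the 12.35% and 24.59% of 3579 dim genes, and their median was 0.02, beside -0.07. Neither contrast was tested. Of the P450s 28 were dim, while 16 of 17 glutathione transferases and 10 of 11 aldehyde dehydrogenases were bright, so that family and brightness largely went together. Among bright members alone, the median was 0.07 for 6 P450s, with 1 separated upwards and 1 downwards. It was 0.24 for 16 glutathione transferases (8 and 2), 0.23 for 10 aldehyde dehydrogenases (4 and 1) and 0.18 for 6 aldo-keto reductases (2 and 0). The bright P450s are few, and these differences were not tested.

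Separated groups with a gap of 2-fold or more in the means of log2 signal were found for 2 members, Cyp1b1 and Ces2c, both higher in obese tissue (0.411% of all genes), and for 0 members lower in obese tissue (0.744% of all genes). Cyp1b1 hydroxylates oestradiol and polycyclic hydrocarbons and is a known target of the aryl hydrocarbon receptor. Its signal was 333.7 and 728.4 on the obese arrays, against 136.0 and 213.4 on the control arrays. Both obese arrays were above both controls, with obese replicate 2 more than 2 times obese replicate 1. The means were 531 ± 279 in obese and 174.7 ± 54.7 in control tissue (SD, n = 2 each), a log2 difference of 1.53 ± 0.40 (SE, limma adjusted p = 0.467). The difference was 0.97 with obese replicate 2 left out, 2.10 with obese replicate 1 left out, and 1.21 or 1.86 with control replicate 1 or 2 left out.

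Ces2c, a carboxylesterase that splits ester drugs and lipids, had a signal of 53.0 and 96.9 in obese tissue, against 35.3 and 33.8 in control tissue. The controls were close together and the 2 obese arrays far apart. The log2 difference was 1.05 ± 0.31 (limma adjusted p = 0.515), 0.62 without obese replicate 2 and 1.49 without obese replicate 1. The other carboxylesterase that passed, Ces1d, a triglyceride hydrolase of adipocytes and liver, had 2113.1 and 2530.5 in obese tissue and 1986.5 and 1930.3 in control tissue. Its groups were separated by a small margin, with a difference of 0.24 ± 0.16, 0.11 without obese replicate 2.

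The 250 bases before the annotated start of these 2 genes are shown because they were the only members past 2-fold. They are taken from RefSeq on GRCr8, read 5′ to 3′ on the gene's strand (chr6:21094315-21094564, plus strand for Cyp1b1 and chr1:270376951-270377200, plus strand for Ces2c), with matches to GCGTG or TGACNNNGC on either strand in capitals.
Cyp1b1: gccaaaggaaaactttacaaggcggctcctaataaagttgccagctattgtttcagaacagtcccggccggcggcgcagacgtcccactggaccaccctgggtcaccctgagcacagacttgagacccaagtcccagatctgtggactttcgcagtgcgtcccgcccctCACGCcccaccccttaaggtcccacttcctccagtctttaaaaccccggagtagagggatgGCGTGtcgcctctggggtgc
Ces2c: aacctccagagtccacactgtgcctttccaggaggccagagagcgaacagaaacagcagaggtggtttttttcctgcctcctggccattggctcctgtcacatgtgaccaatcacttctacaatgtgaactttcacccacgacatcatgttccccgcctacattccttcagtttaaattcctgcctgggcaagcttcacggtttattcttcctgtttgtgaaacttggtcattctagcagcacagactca
The Cyp1b1 window holds 2 GCGTG cores, 1 on each strand, whose first bases lie at -81 and -20 from the start, and no match to TGACNNNGC. The Ces2c window holds neither. Over all 33469 RefSeq windows of this length, 25.9% hold GCGTG and 10.1% hold TGACNNNGC on either strand. Of the 66 members with such a window 21 hold GCGTG (31.8%) and 10 hold TGACNNNGC (15.2%). GCGTG was in 10 of 22 windows of members separated upwards and 3 of 9 of those separated downwards, and TGACNNNGC in 2 of 22 and 3 of 9. A match is a description of the letters and not a binding site.

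Other genes known as targets of the aryl hydrocarbon receptor were dim or differed less. Cyp1a1, which oxidizes polycyclic hydrocarbons, was under the floor throughout, at 4.1 and 2.9 on the obese arrays and 15.9 and 9.8 on the controls. Cyp1a2, an oxidase of aromatic amines, had 48.8 and 44.4 in obese tissue and 40.9 and 62.5 in control tissue, and its groups overlapped. Aldh3a1 exceeded the floor on 1 array only, with 29.0 and 15.8 in obese tissue and 18.6 and 6.2 in control tissue. Nqo1, which reduces quinones with NADPH or NADH, had 164.2 and 211.1 in obese tissue against 120.9 and 150.3 in control tissue. Both of its obese values were above both controls, a difference of 0.47 ± 0.20 (limma adjusted p = 0.615), 0.28 without obese replicate 2. Tiparp, a further target and a brake on the receptor, had 367.9 and 382.5 in obese tissue against 337.3 and 302.4 in control tissue, a separated difference of 0.23 ± 0.13. The relative of Nqo1, Nqo2, had 103.3 and 103.0 in obese tissue and 92.2 and 99.2 in control tissue, a difference of 0.11 ± 0.16, 0.056 without control replicate 1.

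The receptor side showed small differences. Of 9 receptors and partners listed for these pathways 8 were measured, 3 of them separated upwards and 1 downwards, beside 16.4% and 24.0% of all genes. Their differences lay between -0.08 (Keap1, the NRF2 inhibitor) and 0.24 (Arnt, the receptor's dimer partner). Keap1 had 126.0 and 111.1 in obese and 121.6 and 128.8 in control tissue, and Arnt 75.4 and 96.7 in obese and 73.8 and 71.2 in control tissue. The receptor gene itself, Ahr, named after its values were seen, had 72.8 and 47.2 in obese tissue and 60.2 and 60.3 in control tissue.

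P450s of families 1 to 3, which handle most drugs, had 18 members, 4 separated upwards and 4 downwards. That is 22.2% each way, beside 16.4% upwards and 24.0% downwards over all genes. The 4 downward ones include Cyp2g1, which passed the filter only through the control arrays and so had to be separated. Apart from Cyp1b1 most of the 18 members were dim. Cyp2e1, which oxidizes ethanol and small solvents, had 58.4 and 57.5 in obese tissue, against 42.2 and 44.1 in control tissue, with replicates closer to each other than to the other group. Its difference was 0.43 ± 0.18 (limma adjusted p = 0.621). It was 0.08 under the higher floor of 54.7, which raises both control values to it. Cyp2a1 and Cyp2t1 were separated upwards too, by 0.23 and 0.29.

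Downwards, Cyp2b3 had 33.2 and 19.8 in obese tissue against 47.2 and 37.0 in control tissue, a difference of -0.67 ± 0.29 with 1 obese array under the floor, and -0.33 without obese replicate 2. Cyp2c11, the main male-specific P450 of rat liver, had 45.2 and 44.5 in obese tissue against 53.0 and 56.6 in control tissue, a difference of -0.29 ± 0.19. Cyp2g1, known from the olfactory mucosa, had 14.1 and 13.3 in obese tissue, both below the floor, and 24.8 and 30.7 in control tissue, at least 1.33-fold lower in obese tissue. In Cyp4f4 of family 4 both obese signals, 19.5 and 19, were also below the floor, against 23.5 and 22.8 in control tissue, at least 1.11-fold lower. These 2 genes passed the filter only through the control arrays and so had to differ. Cyp2j3 was separated downwards by 0.26 on the log2 scale, with 1 obese array under the floor. The remaining 10 members of families 1 to 3 overlapped, with differences between -0.13 (Cyp3a9) and 0.20 (Cyp2j4), among them Cyp2d4, whose 2 probe sets gave -0.04 (-0.45 without obese replicate 1) and -0.08, and Cyp2c13, whose probe set name carries the suffix used for sets that match several transcripts.

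Family 4 P450s, which hydroxylate fatty acids at the far end of the chain, had 9 members, 1 separated upwards and 3 downwards. That is 11.1% and 33.3%, beside 16.4% and 24.0% of all genes. The 3 downward ones include Cyp4f4, which passed the filter only through the control arrays and so had to be separated. Cyp4v3 had 234.6 and 210.3 in obese tissue, against 281.1 and 361.7 in control tissue. All 4 values were well above the floor and the groups did not overlap, with a difference of -0.52 ± 0.17 (limma adjusted p = 0.522), -0.34 without control replicate 2. A second, dimmer probe set of Cyp4v3 gave -0.09, with 32 and 26.6 in obese and 33.7 and 28.7 in control tissue. Cyp4a1, the lauric acid hydroxylase, had 32.7 and 27.2 in obese tissue against 38.3 and 35.7 in control tissue, a difference of -0.31 ± 0.20, -0.18 without obese replicate 2. Cyp4f5 was separated upwards by 0.39, and Cyp4a8, Cyp4f1, Cyp4f6 and Cyp4f17 overlapped at 0.04 to 0.21. Cyp4b1, an activator of some natural toxins, overlapped with 269.1 and 584.4 in obese tissue and 326.6 and 351.7 in control tissue, a difference of 0.23 that was -0.33 without obese replicate 2.

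P450s of sterols, vitamin D and retinoic acid (families 7 and above) had 7 members, 0 separated upwards and 3 downwards. The shares were 16.4% upwards and 24.0% downwards over all genes, and 12.35% and 24.59% over genes with a mean signal under 100. The 3 downward differences lay between -0.63 and -0.70. Cyp27b1, which makes the active form of vitamin D, had 44.5 and 64.5 in obese tissue against 97.1 and 77.7 in control tissue, a difference of -0.70 ± 0.25 (limma adjusted p = 0.571), -0.43 without obese replicate 1. Cyp26b1, which breaks down retinoic acid, had 38.8 and 45 in obese tissue against 74.4 and 56.3 in control tissue, a difference of -0.63 ± 0.23 (limma adjusted p = 0.564). Cyp7a1, the rate-limiting enzyme of bile acid synthesis in the liver, had 50.4 and 30.7 in obese tissue against 61.3 and 61.0 in control tissue, a difference of -0.64 ± 0.28, -0.28 without obese replicate 2. Under the higher floor of 54.7 these 3 differences were -0.55, -0.24 and -0.16. The groups overlapped for Cyp8b1, Cyp26a1, Cyp27a1 and Cyp11b1, whose differences lay between -0.17 and 0.31.

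The summed signal of the macrophage markers was 5216.7 and 4965.3 on the obese arrays, against 5986.7 and 7038.9 on the control arrays. Of these 7 markers 5 were separated downwards, beside 24.0% of all genes. Their part in the values of the downward P450s was not tested. Of 7 fibroblast markers 2 were separated upwards and 4 downwards, of 5 endothelial markers 1 and 1, and of 3 blood markers 0 and 2. The shares over all genes were 16.4% upwards and 24.0% downwards. In the steroidogenic marker list, Star had 97.7 and 202.6 in obese tissue against 61.8 and 41.6 in control tissue, and Cyp11a1, the first enzyme of steroid synthesis, 150.2 and 148.7 against 81.5 and 55.4. Nr5a1, Hsd3b1, Akr1b7, Dbh and Chga of that list were under the floor on all arrays, and Nr0b1 exceeded it on 2.

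**Figure D3:**
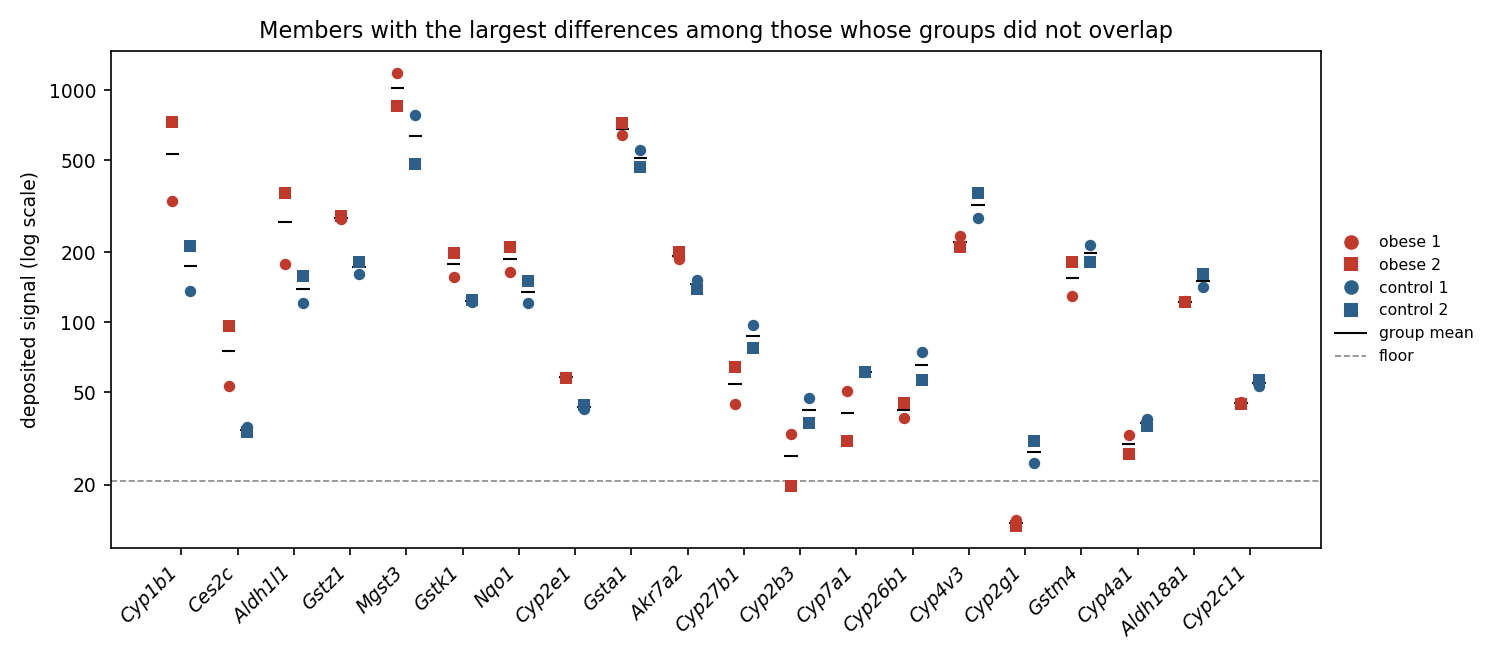
Signals on each array, on a log scale, for the 10 members with the largest upward (left) and downward (right) differences among those whose groups did not overlap; circles and squares are replicates 1 and 2, bars are group means and the dashed line is the floor of 20.8. Cyp1b1 and Ces2c show a wide gap between the obese replicates, Gstz1 and Cyp2e1 a narrow one, and most of the P450s on the right lie below 100.

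The smallest unadjusted limma p among the members was that of 1 glutathione transferase, Gstz1 (0.0022). The next was that of Cyp1b1 (0.0091). Gstz1, the zeta-class enzyme that isomerizes maleylacetoacetate in tyrosine breakdown, had 278.1 and 286.4 in obese tissue, against 162.1 and 182.9 in control tissue. The replicates of each group lay close together beside the gap between groups. The means were 282.3 ± 5.87 and 172.5 ± 14.7 (SD, n = 2 each), a log2 difference of 0.71 ± 0.14 (limma adjusted p = 0.402), with values between 0.63 and 0.80 when any array was left out. Gstk1, the kappa-class enzyme of mitochondria and peroxisomes, had 157.5 and 199.4 in obese tissue against 122.5 and 125.2 in control tissue, a difference of 0.52 ± 0.17 (limma adjusted p = 0.543). Gsta1 of the alpha class, which also binds steroids and bilirubin, had 643.2 and 720.0 in obese tissue against 555.3 and 468.1 in control tissue, a difference of 0.42 ± 0.14 (limma adjusted p = 0.557).

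Gstp1, the pi-class enzyme, had 905.6 and 868.5 in obese tissue against 827.5 and 816.1 in control tissue, separated but by a log2 difference of 0.11 ± 0.12. In the theta class Gstt3 was separated upwards by 0.40 (0.12 without control replicate 2), while Gstt1 and Gstt2 overlapped at 0.26 and -0.03. Gsto1 and Gsta4 overlapped with differences of 0.23 and 0.09.

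The membrane-bound enzymes did not move as 1 group. Mgst3, which couples glutathione to leukotrienes and reduces lipid peroxides, had 1182.0 and 858.3 in obese tissue against 783.9 and 482.9 in control tissue. Its groups were separated by less than the gap between replicates, with a difference of 0.71 ± 0.27 (limma adjusted p = 0.581), 0.36 without control replicate 2. Mgst1, the abundant microsomal transferase, had 2751.9 and 3403.1 in obese tissue and 2836.6 and 2618.7 in control tissue. Its groups overlapped, with a difference of 0.17 ± 0.17. Without obese replicate 2 it was 0.014. Mgst2 also overlapped, with 384.6 and 242.7 in obese tissue and 320.0 and 340.5 in control tissue, a difference of -0.11 that was -0.44 without obese replicate 1 and 0.22 without obese replicate 2.

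The mu class split in 2 directions. Its 5 members lie in 1 cluster on chromosome 2 in the order Gstm5, Gstm7, Gstm2, Gstm1, Gstm4, with no other protein-coding gene annotated between Gstm2, Gstm1 and Gstm4. Gstm2 had 487.7 and 512.5 in obese tissue against 416.5 and 342.0 in control tissue, a difference of 0.41 ± 0.14 (limma adjusted p = 0.560). Gstm1 had 293.1 and 315.6 in obese tissue against 261.6 and 206.6 in control tissue, a difference of 0.39 ± 0.16. For both genes each obese array was above both controls, and without control replicate 2 the differences were 0.26 for Gstm2 and 0.22 for Gstm1.

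The flanking genes lay the other way. Gstm4 had 130.1 and 181.3 in obese tissue against 215.0 and 181.7 in control tissue, a difference of -0.36 ± 0.21, with obese replicate 2 and control replicate 2 nearly equal, and -0.12 without obese replicate 1. Gstm5 had 151.2 and 136.9 in obese tissue against 178.1 and 170.9 in control tissue, a difference of -0.28 ± 0.14. Gstm7 had 71.2 and 67.1 in obese tissue against 76.1 and 79.3 in control tissue, a difference of -0.17 ± 0.18. Under each of 3 other scalings the 5 signs were as given, and the number separated downwards was 2 in place of 3. None of the 5 passed the adjusted test, the difference between the subgroups was not tested, and the transcripts are similar enough that probe sets may share signal.

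**Figure D4:**
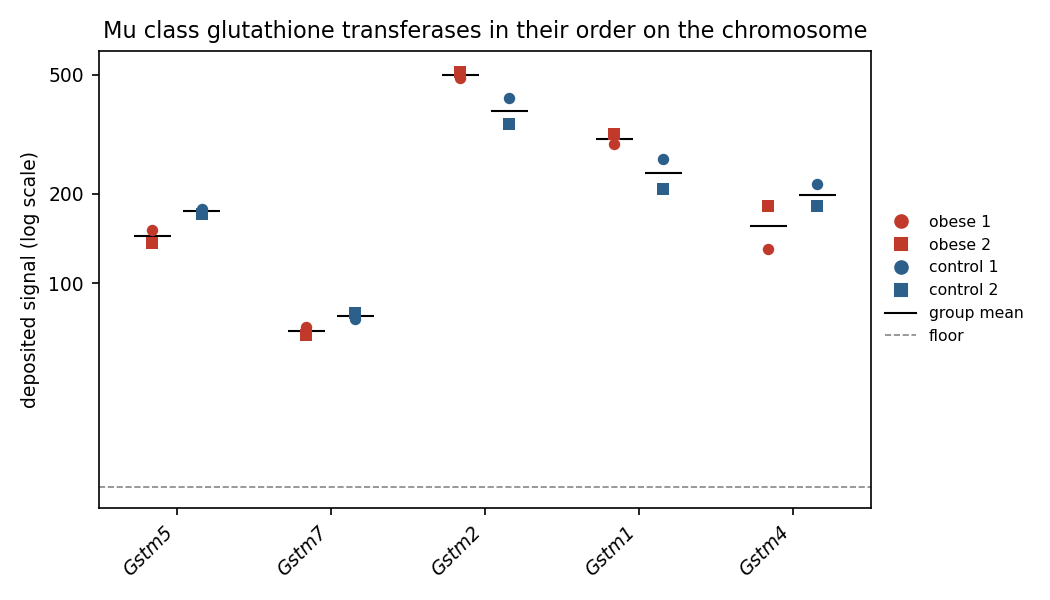
Signals of the 5 mu-class genes on each array, on a log scale, in their order along chromosome 2; circles and squares are replicates 1 and 2, bars are group means and the dashed line is the floor of 20.8. Obese arrays lie above the controls for Gstm2 and Gstm1 and below them for Gstm5, Gstm7 and Gstm4.

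The 250 bases before the starts of the 5 genes are printed because neighbours of 1 cluster differed in direction (RefSeq, GRCr8, gene strand, capitals as above). Gstm1 is at chr2:198343384-198343633, minus strand, Gstm2 at chr2:198316918-198317167, minus strand, Gstm4 at chr2:198373384-198373633, minus strand, Gstm5 at chr2:198219519-198219768, plus strand and Gstm7 at chr2:198260320-198260569, minus strand.
Gstm1: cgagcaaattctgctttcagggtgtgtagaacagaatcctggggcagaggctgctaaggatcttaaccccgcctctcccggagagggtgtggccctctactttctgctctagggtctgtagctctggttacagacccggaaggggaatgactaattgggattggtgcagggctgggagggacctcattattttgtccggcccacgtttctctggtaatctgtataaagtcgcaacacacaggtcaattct
Gstm2: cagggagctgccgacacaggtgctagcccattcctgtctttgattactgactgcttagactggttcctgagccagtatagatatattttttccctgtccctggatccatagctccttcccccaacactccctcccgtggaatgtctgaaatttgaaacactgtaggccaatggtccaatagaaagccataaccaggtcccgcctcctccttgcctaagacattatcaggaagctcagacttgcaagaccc
Gstm4: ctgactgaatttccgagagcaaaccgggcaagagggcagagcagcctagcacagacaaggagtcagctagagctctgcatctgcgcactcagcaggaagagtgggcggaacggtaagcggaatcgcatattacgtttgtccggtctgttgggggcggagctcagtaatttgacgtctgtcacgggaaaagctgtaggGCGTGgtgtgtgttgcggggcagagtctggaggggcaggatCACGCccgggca
Gstm5: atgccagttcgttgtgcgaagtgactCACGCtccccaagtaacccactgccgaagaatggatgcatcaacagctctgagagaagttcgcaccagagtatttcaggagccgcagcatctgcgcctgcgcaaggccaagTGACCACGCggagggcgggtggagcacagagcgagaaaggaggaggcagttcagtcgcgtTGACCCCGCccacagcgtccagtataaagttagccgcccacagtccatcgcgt
Gstm7: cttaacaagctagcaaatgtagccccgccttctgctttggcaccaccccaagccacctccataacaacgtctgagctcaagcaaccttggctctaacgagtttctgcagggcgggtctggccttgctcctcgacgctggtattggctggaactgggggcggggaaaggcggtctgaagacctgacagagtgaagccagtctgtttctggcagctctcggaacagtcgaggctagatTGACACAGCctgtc
Neither the Gstm1 nor the Gstm2 window holds either core. Gstm4 holds 2 GCGTG cores, Gstm5 holds 2 GCGTG and 2 TGACNNNGC cores, of which 1 pair overlaps, and Gstm7 holds 1 TGACNNNGC core 14 bases before its start. Over members with a window, GCGTG was in 10 of 22 separated upwards and 3 of 9 separated downwards, and TGACNNNGC in 2 of 22 and 3 of 9. The part of the cores in the direction of the 5 genes was not tested. In global alignments of the windows, identity between any pair lay between 46.4% and 53.2%, and it was 52.0% between Gstm1 and Gstm2. Identity between windows of unrelated genes was not computed for comparison.

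Of 11 pairs of members with no other protein-coding gene between them, 6 had differences of opposite sign (54.5%), near the 47.8% of 4336 such pairs over all genes tested. Beside Gstm1 and Gstm4, these were Akr1b1 and Akr1b8 (0.64 and -0.26), Akr7a2 and Akr7a3 (0.41 and -0.03), Cyp2j4 and Cyp2j3 (0.20 and -0.26), Cyp2a3 and Cyp2g1, and Cyp4b1 and Cyp4a1. The other 5 pairs, of the same sign, were Gstm2 and Gstm1, Gstt1 and Gstt3, Cyp2a3 and Cyp2a1, Cyp4f17 and Cyp4f5, and Cyp4f1 and Cyp4f6. Mgst3 and Aldh9a1, with 1 protein-coding gene between them on chromosome 13, gave 0.71 and 0.32.

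With all 4 arrays, 10 of 11 aldehyde dehydrogenases had a difference above 0, where 3907 of all 9011 genes had one. Without obese replicate 1, Aldh1a1 and Aldh1a2 were both at -0.16. Without obese replicate 2, Aldh7a1 was at -0.12 and Aldh16a1 at -0.06. Aldh1l1, which oxidizes formyl-tetrahydrofolate, had 177.7 and 362.2 in obese tissue against 120.9 and 158.6 in control tissue, a difference of 0.87 ± 0.35 (limma adjusted p = 0.592), 0.36 without obese replicate 2. Aldh2, the mitochondrial enzyme of acetaldehyde, had 1172.3 and 1218.2 in obese tissue against 1100.2 and 902.5 in control tissue, a difference of 0.26 ± 0.15, 0.12 without control replicate 2. Aldh3a2, which oxidizes fatty aldehydes, and Aldh4a1 of proline breakdown were separated upwards by 0.25 and 0.16.

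Aldh9a1, which takes part in carnitine synthesis, overlapped, with 631.6 and 901.0 in obese tissue and 666.4 and 544.6 in control tissue, a difference of 0.32 ± 0.21, 0.068 without obese replicate 2. The member below 0 was Aldh18a1, which works in proline synthesis, with 123.2 and 122.4 in obese tissue against 141.5 and 161.3 in control tissue, a difference of -0.30 ± 0.15. Aldh6a1, Aldh7a1 and Aldh16a1 overlapped with differences between 0.03 and 0.20, and the second probe set of Aldh6a1 gave 0.14.

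Of the aldo-keto reductases Akr7a2, which reduces succinic semialdehyde and aflatoxin dialdehyde, had 187.7 and 200.1 in obese tissue against 152.9 and 139.1 in control tissue, a difference of 0.41 ± 0.14 (limma adjusted p = 0.557). Akr1b1, aldose reductase, had 1168.1 and 2473.8 in obese tissue and 958.1 and 1239.8 in control tissue. Its groups overlapped and its difference of 0.64 ± 0.36 rested on obese replicate 2, without which it was 0.10. Akr1b8 overlapped too, with 125.8 and 231.1 in obese tissue and 134.2 and 311.6 in control tissue, a difference of -0.26 that was 0.18 without obese replicate 1 and 0.35 without control replicate 2. Akr1a1, aldehyde reductase, had 1192.2 and 1392.8 in obese tissue and 1194.3 and 1085.2 in control tissue, a difference of 0.18 ± 0.15 that was 0.067 without obese replicate 2. Akr1c13 was separated upwards by 0.18, and Akr1c3, Akr1e2, Akr1d1 and Akr7a3 overlapped with differences between -0.03 and 0.19.

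Conjugation with sulfate and glucuronic acid showed no separated member among 5 sulfotransferases and 1 glucuronosyltransferase. Over all genes, the groups overlapped for 5365 of 9011. Sult1a1, which sulfates phenols, had 1081.4 and 1290.3 in obese tissue and 1222.3 and 956.7 in control tissue, a difference of 0.13 ± 0.18. Sult5a1 had 253.6 and 190.7 in obese tissue and 243.1 and 218.5 in control tissue. Sult4a1, known from brain, had 33.3 and 37.0 in obese tissue and 32.9 and 50.6 in control tissue. Sult1d1 was at 26.4 and 6.9 in obese tissue and 26.8 and 23.9 in control tissue, and Ugt2b7, which glucuronidates steroids, at 30.4 and 20.6 in obese tissue and 29.3 and 20.8 in control tissue.

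Sult1e1, the oestrogen sulfotransferase, had 87.6 and 16.8 in obese tissue and 29.4 and 24.1 in control tissue. Its groups overlapped, and its difference of 0.68 ± 0.64 was -0.36 without obese replicate 1. Obese replicate 1 had at least 1.5 times the next highest array for 5 members, a rule set after the values were seen: Sult1e1, Aldh1a1, Aldh1a2, Akr1d1 and Cyp11b1. Aldh1a1 and Aldh1a2, which make retinoic acid from retinaldehyde, had 140.9 and 58.3, and 298.2 and 162.0, on the obese arrays, against 84.9 and 50, and 195.3 and 167.6, on the control arrays. Their differences were 0.48 and 0.28, and both were -0.16 without obese replicate 1. Akr1d1, a reductase of bile acid precursors and steroids, gave 0.10 and -0.68 without that array, and the steroid hydroxylase Cyp11b1 gave 0.31 and -0.21.

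The epithelial and mesothelial markers were highest on the same array: of 7 on the array, Epcam, Cdh1, Krt8, Krt18, Krt19 and Msln had their top signal on obese replicate 1 and Cldn1 did not. Krt19 had 405.4 and 47.8 on the obese arrays and 114.7 and 118.5 on the control arrays. The part of such cells in the 5 members' values was not tested. Obese replicate 2 had at least 1.5 times the next array for Akr1b1, Aldh1l1, Ces2c, Cyp1b1 and Cyp4b1, and neither control array did so for any member. That is 6.17% of members on each obese array, where 1.39% of all genes met the rule on obese replicate 1, 1.18% on obese replicate 2, 0.577% on control replicate 1 and 1.12% on control replicate 2. The summed adipocyte markers were highest on obese replicate 2, and Lep, named after its values were seen, had 539.5 and 1256.4 in obese tissue and 597.4 and 330.2 in control tissue. Their part in the 5 members that peaked there was not tested.

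**Figure D5:**
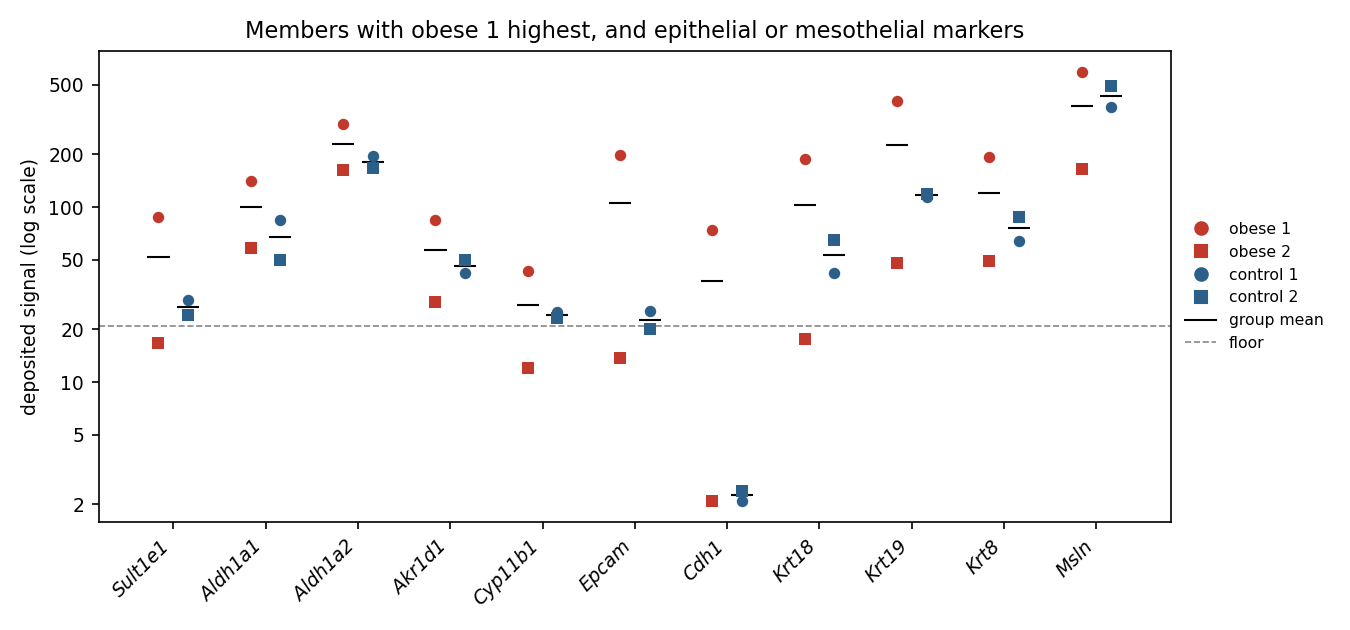
Signals on each array, on a log scale, of the 5 members that were highest by at least 1.5 times on obese replicate 1 (left) and of 6 epithelial or mesothelial markers (right); circles and squares are replicates 1 and 2, bars are group means and the dashed line is the floor of 20.8. The members were chosen for being highest on obese replicate 1, where Sult1e1 is at 87.6, and the markers drawn are the 6 of 7 that were highest there (Epcam at 198.2), Cldn1 being left out.

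Partners of these enzymes were listed by symbol and counted. Over all genes, 16.4% were separated upwards and 24.0% downwards. Of 15 measured electron donors and other first-step enzymes, 8 were separated upwards and 2 downwards, 0 passed the adjusted test, and the median difference was 0.20. Maob, a monoamine oxidase, had 119.1 and 149.8 in obese tissue against 92.9 and 75.4 in control tissue, a difference of 0.67 ± 0.20 (limma adjusted p = 0.522), and Xdh, xanthine dehydrogenase, had 1474.7 and 1477.0 against 1754.6 and 1721.5, a difference of -0.24 ± 0.13. The P450 reductase Por, named after its values were seen because every microsomal P450 draws on it, had 292.9 and 334.0 in obese tissue against 220.1 and 247.6 in control tissue, a difference of 0.42 ± 0.14 (limma adjusted p = 0.552).

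Of 13 other conjugation genes 3 were separated upwards and 3 downwards, beside 16.4% and 24.0% of all genes, with a median of 0.07. Glutathione reductase, Gsr, had 80.6 and 86.1 in obese tissue against 66.3 and 59.9 in control tissue, a difference of 0.40 ± 0.18, and the prostaglandin D synthase Hpgds had 84.8 and 65.6 against 112.5 and 99.0, a difference of -0.50 ± 0.21, -0.32 without obese replicate 2. Of 3 efflux pumps 1 was separated upwards, with differences between -0.09 (Abcc2) and 0.19 (Abcc3), and 0 downwards.

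Steroid and retinoid partners numbered 17, with 5 separated upwards, 2 downwards and 0 past the adjusted test, and a median of 0.05. The shares over all genes were 16.4% upwards and 24.0% downwards. Crabp2, a retinoic acid binding protein, had 140.7 and 52.5 in obese tissue against 29.1 and 31.7 in control tissue, a difference of 1.5 ± 0.46 (limma adjusted p = 0.522). It too was highest on obese replicate 1, without which the difference was 0.79. Its relative Crabp1 had 8.8 and 16.6 in obese tissue, both below the floor, and 35.1 and 34.6 in control tissue, at least 1.68-fold lower in obese tissue. It passed the filter only through the control arrays and so had to differ.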

How the data were processed

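The authors deposited a table of intensities, linear as its range of 0 to 5022.9 shows, with a value for each probe set in each sample. Which scanner, software and normalization they used was not given in the sources used. The deposited intensities had been scaled: means trimmed by 2% on either side were 150.026 to 150.03, so no further scaling was applied. Of 15923 probe sets 57 controls were left out. The platform annotation gives 1 symbol for 12783 of the others, several for 312 and no symbol for 2771. Only probe sets with 1 symbol were named. Entrez identifiers of 80 of 81 members were found in the GRCr8 gene table, with 0 changed symbols.

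Signals below the 20th percentile, 20.8, were set to it before taking log2. Probe sets with at least 2 arrays above it (12929) were fitted with limma 3.58.1 in R 4.3.3 (lmFit, eBayes with a variance trend), obese minus control, two-sided, Benjamini-Hochberg adjusted over all. SE is moderated, with 5.83 degrees of freedom. An exact permutation test of 2 against 2 cannot go below p = 0.333 and was not run. The code was tested on simulated data. Array number limits the precision.

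Members and lists were chosen with earlier results of these data known. Full values are given for Cyp1b1, Mgst1 and the 10 largest separated differences each way. In each family they are also given for the 2 members with the highest mean log2 signal and those with the highest and lowest difference. Array values are also given outside this rule for other members, among them Gstm1, Gstm2, Gstm5, Gstm7, Mgst2, Cyp1a2, Cyp4f4, Aldh1a1, Aldh1a2 and Sult1d1. Of each partner list the highest and lowest difference were to be named, and Tiparp was named outside that rule. Alternatives were other scalings, floors, filters, variance models, a replicate block, each array left out and the mean over probe sets. Signals of different probe sets are not comparable as abundances. Same-numbered samples' deviations correlated with r = 0.0482 over probe sets, and the numbers were not taken as pairs.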

Additional observations from a re-analysis of the deposited data

How the results depend on the processing

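No member passed the adjusted threshold under any of the 15 alternatives, the replicate block included (0 of 81 with the block). With quantile normalization, cyclic loess and median centring, the settings that could turn their sign, 0 of the 37 separated members did so. With the same 3 scalings the median of all genes was -6.3e-05, 0.0032 and 0.018 in place of -0.04. The member median was 0.1587, 0.1581 and 0.1678 in place of 0.11, the Cyp median 0.071, 0.072 and 0.053 in place of -0.0052, and Cyp members separated upwards numbered 8, 8 and 6 in place of 5. Under the 40th-percentile floor the member median was 0.1829, the Cyp median 0.083, the Sult median 0.030 and the Ces median 0.24, and 8 members (4 Cyp) were separated downwards, because 53 members were left to test. With all 4 arrays required, the member median was 0.1631, the Cyp median 0.042 and 6 Cyp members were separated downwards. With no filter the 39 genes left out before were counted too, 31 of them at the floor on every array. The median over all 120 genes of the families was then 0 and the Ces median 0.12. Leaving out 1 array gave 32 to 39 members separated upwards and 19 to 25 downwards, beside 28.3% to 33.1% and 35.7% to 45.5% of all genes. Cyp members then numbered 10 to 12 upwards and 13 to 15 downwards, and Gst members 9 to 12 and 3 to 5. The family medians then ran from 0.13 to 0.32 for Aldh, -0.084 to -0.0045 for Cyp, 0.11 to 0.32 for Gst and -0.27 to 0.061 for Sult. Over all 81 members 35 turned sign when some array was left out, all of them among the 44 whose groups overlapped. The 37 separated members could not turn sign in this way, and many of the named members are separated. Among the 35 named members 7 turned sign when an array was left out: Akr1b8 (-0.87 to 0.35), Cyp4b1 (-0.33 to 0.79), Sult1a1 (-0.049 to 0.30), Sult1e1 (-0.36 to 1.72), Sult4a1 (-0.53 to 0.093), Sult5a1 (-0.27 to 0.14) and Ugt2b7 (-0.25 to 0.30). The cause was not tested. For probe sets near the floor, the signal over background limits what can be said.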
